A study of Homo sapiens with 12 samples.

Results

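Cholesterol and fatty acid synthesis genes that are targets or regulators of the sterol regulatory element binding proteins (SREBPs) were followed by name, as a list of 32: 18 enzymes of sterol synthesis, 6 regulators counting the sterol carrier STARD4, and 8 genes of the fatty acid arm. Of these, 31 were found among the 57820 gene IDs of the count tables, and all 31 were among the 16999 genes with enough counts to test. No gene ID of the tables was paired with ACACA, an acetyl-CoA carboxylase, and it was not analysed here. The list was set by name and pathway.

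The cells were AsPC-1, an established line from a human pancreatic ductal adenocarcinoma, grown in 6-well plates. siRNA was delivered by lipofection, either a scrambled sequence (siControl) or one that targets ARNT (siARNT), and on the following day the cells were divided between normal culture at 21% O2 (normoxia) and a chamber at 1% O2 for 24 h (hypoxia). RNA was taken 48 h after transfection, and strand-marked poly(A) libraries were sequenced. Each of the 4 groups, siControl and siARNT at either oxygen level, had 3 replicates, A, B and C, so every group including the controls had been transfected, and p-values measure the spread between wells of 1 line. ARNT (HIF-1β) is the partner that HIF-1α and HIF-2α need to bind DNA, and also the partner of other proteins such as the aryl hydrocarbon receptor, so its knockdown can reach beyond the hypoxia response. The design asks how the transcriptome responds to low oxygen with and without HIF activity.

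SREBPs are made as inactive membrane proteins. When sterols are low, SCAP carries them from the endoplasmic reticulum to the Golgi, where proteases release the active part, and when sterols are high, INSIG1 and INSIG2 hold SCAP back. SREBP2, from SREBF2, acts mainly on sterol genes, and SREBP1, from SREBF1, mainly on fatty acid genes. Several steps use molecular oxygen: squalene epoxidation (SQLE), the demethylations by CYP51A1 and MSMO1, the desaturation by SC5D, and the fatty acid desaturases SCD, FADS1 and FADS2. INSIG2 has been described in other cells as a HIF target.

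The promoters of 6 genes described at length below show which elements stand near their starts. They were chosen after the values were seen: 5 hold at least 1 of the motifs, and FADS1, with the largest change under hypoxia, holds none. They are the 250 bases upstream of the start site in RefSeq (GRCh38.p14), written on the gene's own strand, with capitals marking matches, on either strand, to TCACNCCAC (a sterol regulatory element), CCAAT (the NF-Y box that often accompanies it) and ACGTG (the core of a hypoxia response element).
SREBF2: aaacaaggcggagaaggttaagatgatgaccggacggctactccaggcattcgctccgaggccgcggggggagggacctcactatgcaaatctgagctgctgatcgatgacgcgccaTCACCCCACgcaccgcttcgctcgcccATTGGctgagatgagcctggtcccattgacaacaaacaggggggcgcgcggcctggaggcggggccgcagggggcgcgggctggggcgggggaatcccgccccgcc
INSIG1: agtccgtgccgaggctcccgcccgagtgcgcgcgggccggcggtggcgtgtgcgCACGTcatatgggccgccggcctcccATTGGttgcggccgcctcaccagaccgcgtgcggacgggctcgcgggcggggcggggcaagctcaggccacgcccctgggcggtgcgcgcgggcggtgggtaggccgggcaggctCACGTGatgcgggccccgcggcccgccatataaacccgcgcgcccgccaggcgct
INSIG2: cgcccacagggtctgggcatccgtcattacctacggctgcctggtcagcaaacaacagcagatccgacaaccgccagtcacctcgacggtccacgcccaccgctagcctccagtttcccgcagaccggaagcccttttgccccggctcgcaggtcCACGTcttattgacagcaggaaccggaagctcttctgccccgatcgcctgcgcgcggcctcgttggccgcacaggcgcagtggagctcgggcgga
STARD4: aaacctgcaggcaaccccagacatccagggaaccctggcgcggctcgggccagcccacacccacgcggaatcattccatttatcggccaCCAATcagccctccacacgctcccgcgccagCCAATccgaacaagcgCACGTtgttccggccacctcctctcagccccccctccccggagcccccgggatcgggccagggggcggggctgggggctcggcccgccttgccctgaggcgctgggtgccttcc
MSMO1: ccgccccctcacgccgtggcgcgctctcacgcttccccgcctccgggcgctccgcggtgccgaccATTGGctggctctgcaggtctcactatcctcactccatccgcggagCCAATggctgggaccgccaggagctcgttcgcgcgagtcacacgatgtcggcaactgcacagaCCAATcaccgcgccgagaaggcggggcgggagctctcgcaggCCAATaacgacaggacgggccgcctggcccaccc
FADS1: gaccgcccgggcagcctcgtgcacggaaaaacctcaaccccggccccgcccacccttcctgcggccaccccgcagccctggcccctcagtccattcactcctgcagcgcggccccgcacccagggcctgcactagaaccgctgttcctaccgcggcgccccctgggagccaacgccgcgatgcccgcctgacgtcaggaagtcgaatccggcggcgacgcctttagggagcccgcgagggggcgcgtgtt

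These windows lie at chr22:41832855-41833104 (+ strand) for SREBF2, chr7:155297628-155297877 (+ strand) for INSIG1, chr2:118088221-118088470 (+ strand) for the upstream start of INSIG2, chr5:111512536-111512785 (- strand) for STARD4, chr4:165327419-165327668 (+ strand) for MSMO1 and chr11:61817004-61817253 (- strand) for FADS1. The SREBF2 window held TCACCCCAC at -133 to -125, counted from the start site, with a CCAAT box (read ATTGG) at -106 to -102. MSMO1 held 4 CCAAT boxes, at -185, -139, -76 and -34. STARD4 held 2, followed by the hypoxia core (read CACGT) at -114 to -110. The INSIG2 window held the hypoxia core at -95 to -91 and neither of the other motifs, and INSIG1 held it at -196 to -192 and, on both strands of CACGTG, between -55 and -50, with a CCAAT box at -170 to -166. Over the 28 listed genes with an entry in the RefSeq table, 19 (67.9%) held a CCAAT box, against 37.0% of all 27305 genes in it, 8 (28.6%) held ACGTG, against 21.7%, and 1 (3.57%) held TCACNCCAC, against 1.09%. These are matches of letters in short windows, and no binding was measured.

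Library depth ran from 38.5 M to 84.3 M gene counts. Levels are given in CPM, the gene's count per 1 M counts of its library after scaling by the trimmed mean of M values (TMM), and a gene is said to have risen or fallen when edgeR's quasi-likelihood test gave a Benjamini-Hochberg adjusted p under 0.05 over all 16999 genes. The targeted gene, ARNT, stood at 60.7, 63.6 and 63.0 CPM in normoxia siControl and at 13.3, 12.8 and 13.95 CPM in normoxia siARNT. In hypoxia it stood at 70.3, 64.9 and 72.2 CPM with siControl and at 16.0, 15.8 and 14.1 CPM with siARNT. NDRG1, a hypoxia-induced gene, was 1048 to 1199 CPM in hypoxia siControl and 108 to 228 CPM in the other groups, and CA9 rose by 3.27 log2 with hypoxia in siControl cells. All 7 epithelial markers were present, at a summed 5910 to 9994 CPM. Of the fibroblast markers LUM alone exceeded 1 CPM on average (334 to 592 CPM), with COL1A1, COL3A1 and DCN each under 1 CPM in every library. Of the leukocyte markers LYZ alone did (129 to 229 CPM), with CD3E at 0 and PTPRC at no more than 0.0936 CPM, and the endothelial and acinar lists summed to at most 0.965 and 0.0215 CPM.

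The libraries differed in how counts depended on the GC content of a gene's exons. The slope was -0.21 log2 units per 10% GC in normoxia siControl replicate A, the lowest, and 0.42 in normoxia siARNT replicate B, the highest, which stood apart from its 2 fellow replicates (0.00 and -0.01). Hypoxia siARNT replicate C followed, at 0.24. Across the 31 genes, the change with siARNT in normoxia followed GC content with Pearson's r = 0.75, against 0.54 across the 16535 tested genes with a known GC content. The change with hypoxia in siARNT cells did so with r = -0.71 (all genes -0.30), with siARNT in hypoxia with r = 0.38 (all genes 0.11) and with hypoxia in siControl cells with r = 0.16 (all genes 0.21). Genes in these correlations share their libraries and are not independent. Values after a correction that removes each library's GC trend are therefore given beside many of the results they touch, though not beside all.

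With siARNT, several sterol synthesis mRNAs were lower. In normoxia, 11 of the 31 genes fell and 1 rose, where 10.8% of all tested genes fell and 9.42% rose. The fall covered 7 of 18 sterol enzymes, 3 of 6 regulators (INSIG1, INSIG2 and STARD4) and 1 of 7 fatty acid genes (LPIN1), and the gene that rose was SCAP. In hypoxia, 9 fell and 3 rose, where 14.7% of all tested genes fell and 14.4% rose. There the fall covered 5 of 18 sterol enzymes and 4 of 6 regulators, and the 3 that rose were all in the fatty acid arm (ACLY, ELOVL6 and FADS1). The median change of the sterol enzymes was -0.14 log2 in normoxia and -0.20 in hypoxia, against 0.01 and 0.02 over all tested genes, and the median of the fatty acid arm was -0.01 and 0.17. CYP51A1 enters the counts and medians of the sterol enzymes, here and below, by its gene counts, from which it could not be read. In these bulk libraries, less RNA per cell and fewer cells with the RNA cannot be told apart. In both the normoxia and the hypoxia comparison 8 genes fell: IDI1, FDFT1, MSMO1, HSD17B7, SC5D, INSIG1, INSIG2 and STARD4. The share of all tested genes that fell in both was not counted, so this number has no background to be read against. The groups compared share no library, but both comparisons were fitted together on all libraries. Their calls are therefore not independent.

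**Figure D1:**
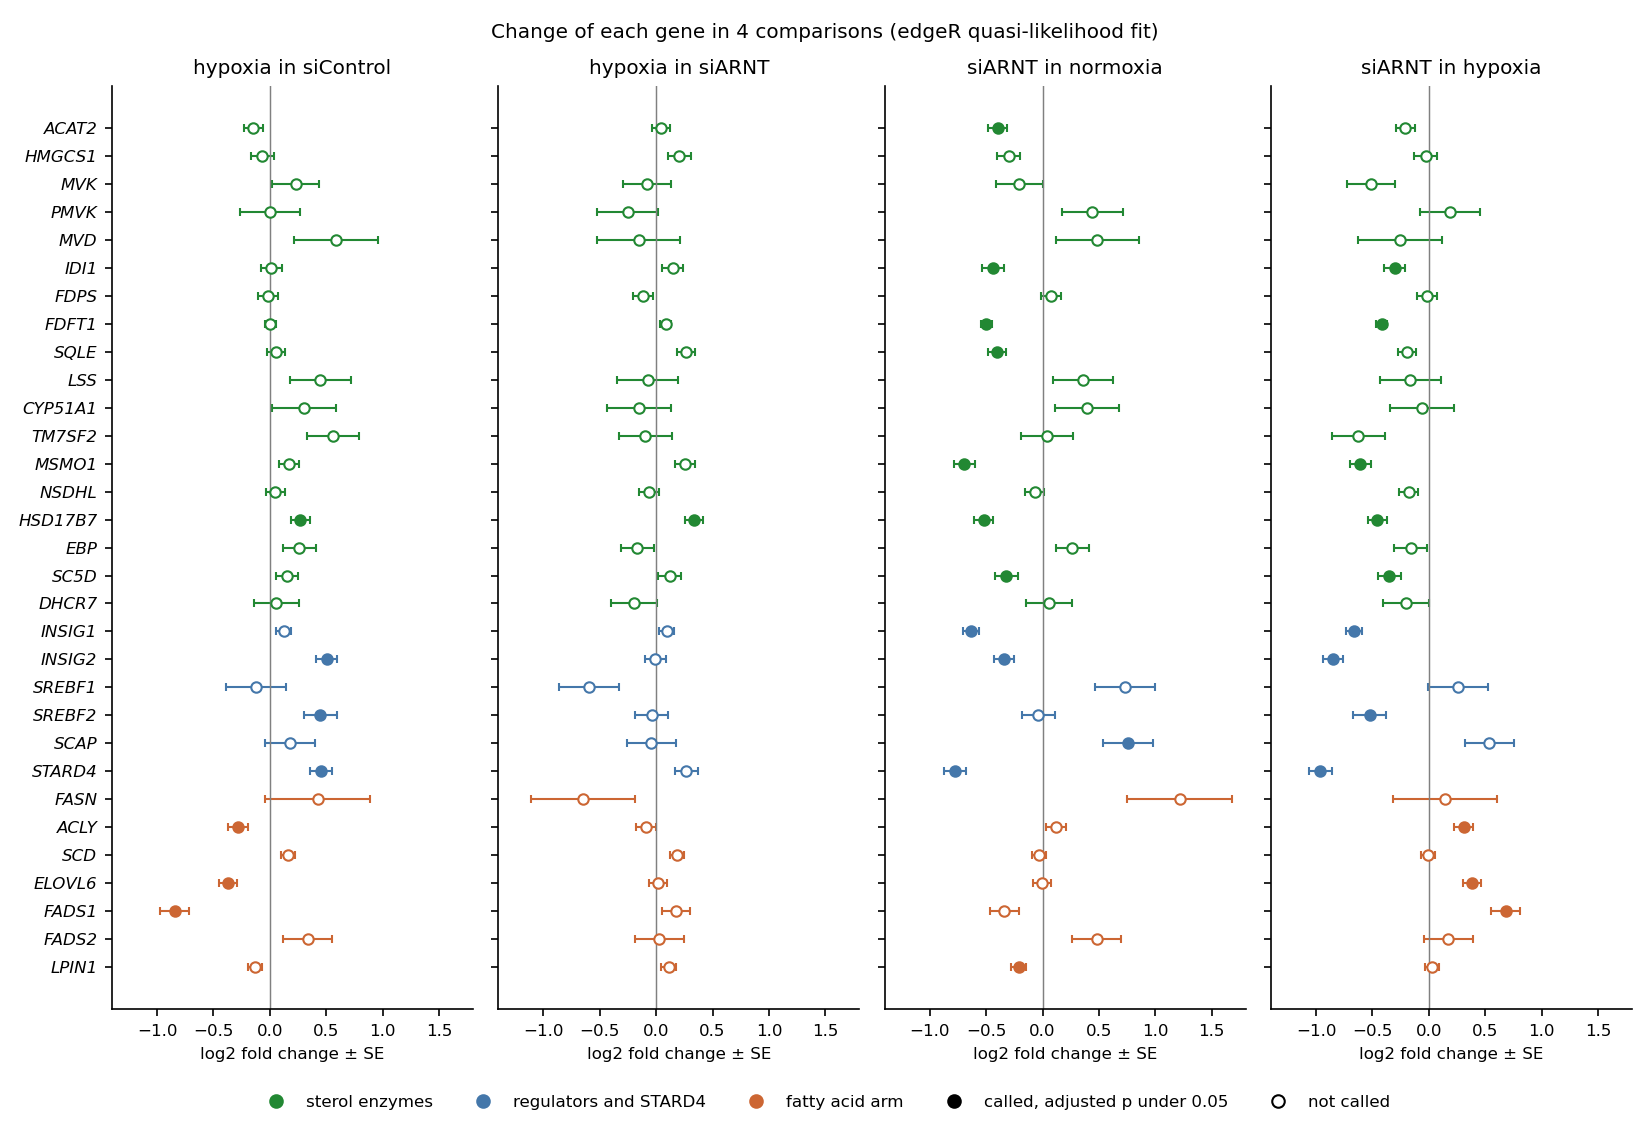
Log2 fold change (horizontal axis, ± SE) of each of the 31 genes (vertical axis, in pathway order) in 4 comparisons, fitted on all 12 libraries, 3 per group. Filled points passed an adjusted p under 0.05; with siARNT, 11 genes fell and 1 rose in normoxia, and 9 fell and 3 rose in hypoxia.

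The calls differed with GC content. Of the 14 genes under 50% GC, 10 were called with siARNT in normoxia, all lower, against 2 of the 17 at or above 50% GC, a split chosen after the values were seen. The shares of all tested genes called on either side of 50% GC were not counted. Over all genes, too, this change followed GC content (Pearson's r = 0.54). Without normoxia siARNT replicate B, 9 of the 31 were called, all lower, where 888 of all tested genes rose and 1299 fell. After GC correction, 18 fell and 1 rose in normoxia, and 17 fell and 4 rose in hypoxia. Of all tested genes, 2821 then rose and 2731 fell in normoxia, and 3955 rose and 3879 fell in hypoxia. Genes rich in GC were then among those that fell: MVK, mevalonate kinase, changed by -0.60 in normoxia and -0.59 in hypoxia (uncorrected -0.20 and -0.51). TM7SF2, a sterol reductase, changed by -0.67 and -0.77 (uncorrected 0.04 and -0.62), and DHCR7, the last reductase of the pathway, by -0.34 and -0.27 (uncorrected 0.06 and -0.20).

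**Figure D2:**
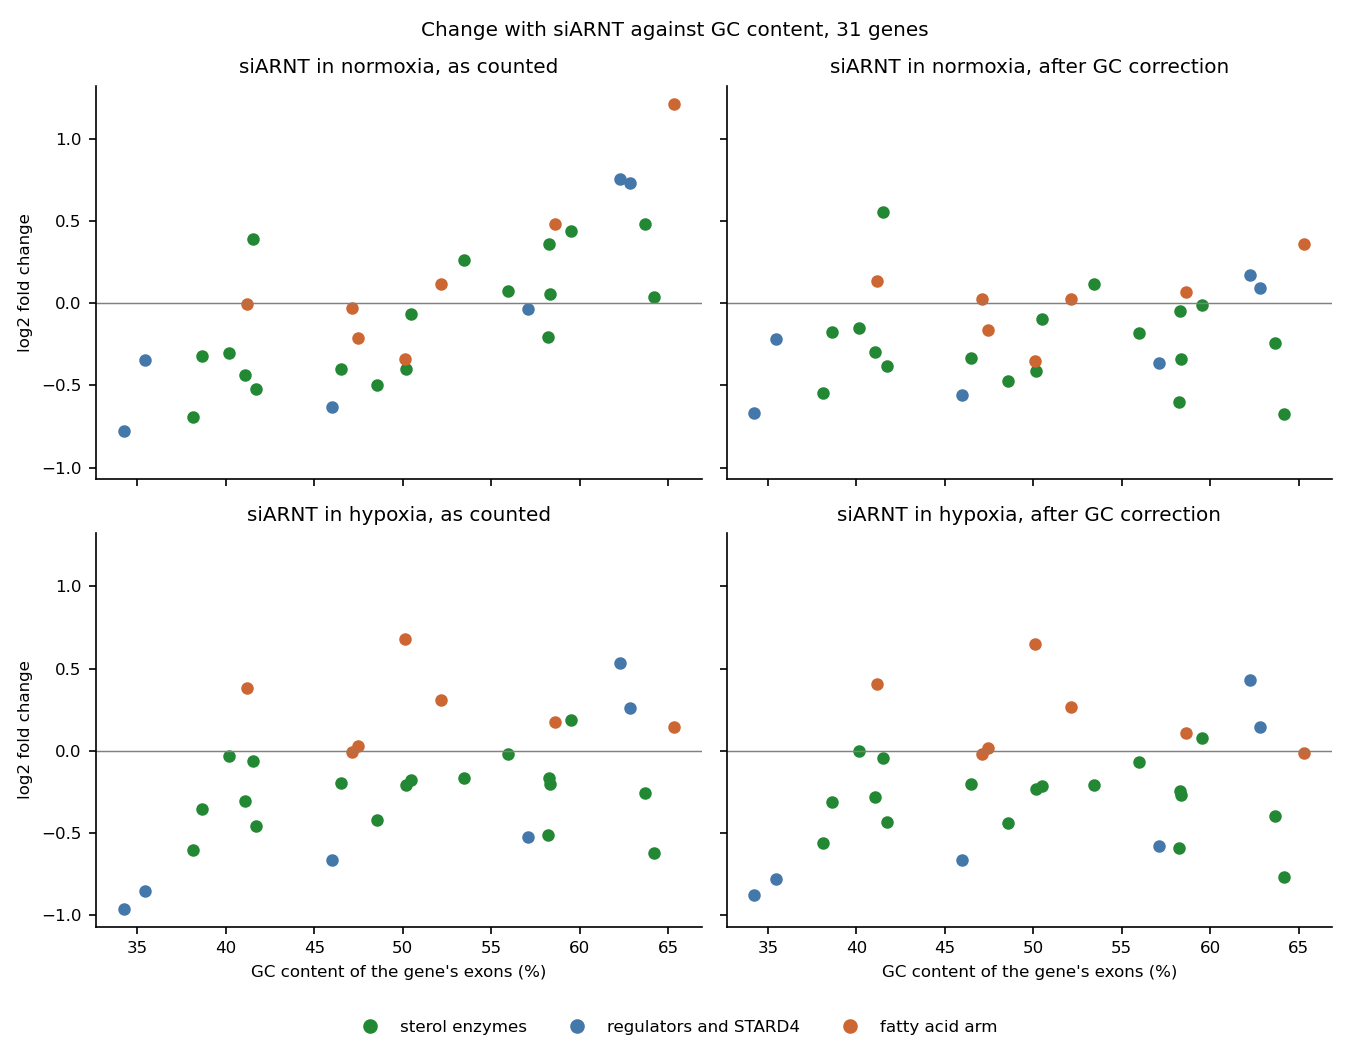
Log2 fold change with siARNT (vertical axis) against GC content of the gene's exons in percent (horizontal axis) for 31 genes, in normoxia (top) and hypoxia (bottom), as counted (left) and after GC correction (right). As counted, the change in normoxia climbs with GC content (Pearson's r = 0.75), and after correction genes on both sides of 50% GC lie below 0.

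ACAT2 joins acetyl-CoA units at the entry of the pathway. It was at 81.7, 74.0 and 79.5 CPM in normoxia siControl, 63.1, 56.5 and 59.0 in normoxia siARNT, 71.8, 71.5 and 69.0 in hypoxia siControl and 68.1, 62.2 and 53.5 in hypoxia siARNT (replicates A, B and C in this order throughout). Both siARNT groups lay below their siControl group without overlap. The log2 change with siARNT was -0.40 ± 0.082 (SE, edgeR adjusted p = 0.00673) in normoxia and -0.21 ± 0.083 (SE, edgeR adjusted p = 0.0796) in hypoxia. After GC correction the change in hypoxia was -0.23 (edgeR adjusted p = 0.0439). By GENCODE 29, 52.3% of ACAT2's exon bases face exons of genes on the opposite strand. The strand setting of the counting is not given in the sources used here.

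IDI1 isomerises isopentenyl diphosphate, the building block of sterols and other isoprenoids. It was at 182, 153 and 152 CPM in normoxia siControl, 124, 106 and 129 in normoxia siARNT, 169, 169 and 153 in hypoxia siControl and 141, 134 and 123 in hypoxia siARNT. The siARNT groups were lower at both oxygen levels, with log2 changes of -0.44 ± 0.094 (SE, edgeR adjusted p = 0.00797) in normoxia and -0.30 ± 0.094 (SE, edgeR adjusted p = 0.0303) in hypoxia. In hypoxia the call was lost with total count scaling (edgeR adjusted p = 0.0832) and without hypoxia siControl replicate A or B or hypoxia siARNT replicate B or C (0.0726 to 0.098). Its exons share 14.8% of their bases with genes on the opposite strand.

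FDFT1, squalene synthase, commits the pathway to sterols. It was at 279.6, 268 and 274 CPM in normoxia siControl, 200.4, 192 and 189 in normoxia siARNT, 275, 279.6 and 269 in hypoxia siControl and 213, 206 and 197 in hypoxia siARNT. All 6 siARNT libraries lay below all 6 siControl libraries, with replicates close together. The log2 change with siARNT was -0.50 ± 0.051 (SE, edgeR adjusted p = 6.39e-05) in normoxia and -0.42 ± 0.051 (SE, edgeR adjusted p = 8.22e-05) in hypoxia, and the change with hypoxia in siControl cells was 0.00 ± 0.051 (SE, edgeR adjusted p = 0.969).

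SQLE, squalene epoxidase, is the earliest step that uses oxygen. It was at 221, 203 and 217 CPM in normoxia siControl, 173, 149 and 163 in normoxia siARNT, 229.8, 217 and 221 in hypoxia siControl and 218, 188 and 177 in hypoxia siARNT. In normoxia the siARNT libraries were all lower, with a log2 change of -0.40 ± 0.08 (SE, edgeR adjusted p = 0.00558). In hypoxia replicate A of siARNT overlapped the siControl libraries. The change there was -0.20 ± 0.08 (SE, edgeR adjusted p = 0.0906), and after GC correction -0.20 (edgeR adjusted p = 0.00473). A difference between the changes in normoxia and in hypoxia was not shown, since the interaction was 0.21 ± 0.11 (SE, edgeR adjusted p = 0.324).

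MSMO1 removes methyl groups from sterol carbon 4 with oxygen, and HSD17B7 is the ketoreductase that completes this demethylation. MSMO1 was at 264, 229 and 236 CPM in normoxia siControl, 155, 135 and 159.7 in normoxia siARNT, 282, 276 and 262 in hypoxia siControl and 201, 176 and 161 in hypoxia siARNT. The siARNT libraries were lower without overlap, with changes of -0.69 ± 0.091 (SE, edgeR adjusted p = 0.000421) in normoxia and -0.61 ± 0.091 (SE, edgeR adjusted p = 0.000398) in hypoxia, the largest falls among the sterol enzymes that were called. HSD17B7, of low count and with a near-identical pseudogene copy to which the counting may have lost reads, was at 14.3, 13.0 and 13.5 CPM in normoxia siControl, 9.86, 8.84 and 9.69 in normoxia siARNT, 17.7, 15.7 and 15.7 in hypoxia siControl and 12.0, 12.0 and 11.8 in hypoxia siARNT. It fell with siARNT without overlap, with changes of -0.52 ± 0.083 (SE, edgeR adjusted p = 0.00148) in normoxia and -0.46 ± 0.083 (SE, edgeR adjusted p = 0.00153) in hypoxia.

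SC5D introduces the C5 double bond with oxygen, near the end of the pathway. It was at 101, 87.1 and 86.9 CPM in normoxia siControl, 75.9, 62.8 and 81.5 in normoxia siARNT, 105, 104 and 96.7 in hypoxia siControl and 87.6, 78.2 and 73.5 in hypoxia siARNT. The siARNT libraries were lower without overlap, with changes of -0.32 ± 0.1 (SE, edgeR adjusted p = 0.0437) in normoxia and -0.35 ± 0.1 (SE, edgeR adjusted p = 0.0209) in hypoxia. In normoxia the call was lost in 9 of 21 alternatives, among them total count scaling (edgeR adjusted p = 0.0537), the 6 compared libraries alone (0.084), and the omission of any normoxia siControl replicate, normoxia siARNT replicate A or B, hypoxia siControl replicate A or hypoxia siARNT replicate B (0.0524 to 0.157). GC correction reduced the normoxic change to -0.18 and kept the call (edgeR adjusted p = 0.023). In hypoxia the call was lost without hypoxia siControl replicate A or hypoxia siARNT replicate B or C (0.0713 to 0.0726).

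CYP51A1, the lanosterol demethylase, could not be read from its gene counts. Of its exon bases, 79.4% also lie in exons of other genes of the same strand, among which AC000120.2 shares the most. The table of exon skips, which counts reads across splice junctions, held 863.5 to 2036 reads per library over the junctions of 1 CYP51A1 exon (skip reads plus the mean of the 2 inclusion junctions), where the whole gene was credited with 135 to 344 counts. The ratio of junction reads to gene counts was 3.04 to 10.6 for CYP51A1 and 0.013 to 0.343 for the 18 other listed genes with such a table entry. Divided by the library's gene counts in M, the junction reads were 26.9, 26.1 and 28.7 in normoxia siControl, 22.6, 18.02 and 20.8 in normoxia siARNT, 28.0, 23.4 and 28.3 in hypoxia siControl and 28.8, 24.6 and 22.4 in hypoxia siARNT. The normoxia siARNT libraries were below the normoxia siControl libraries without overlap, with a log2 change of -0.41 ± 0.10 (SE) and an exact two-sided permutation p of 0.10, the smallest that 3 against 3 can give, and 0.40 adjusted over 4 comparisons. The gene counts gave 0.39 for the same comparison (edgeR adjusted p = 0.32). In hypoxia the junction reads changed by -0.08 ± 0.14 with siARNT (exact p = 0.70). The junction measure was added after the gene counts were seen.

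**Figure D3:**
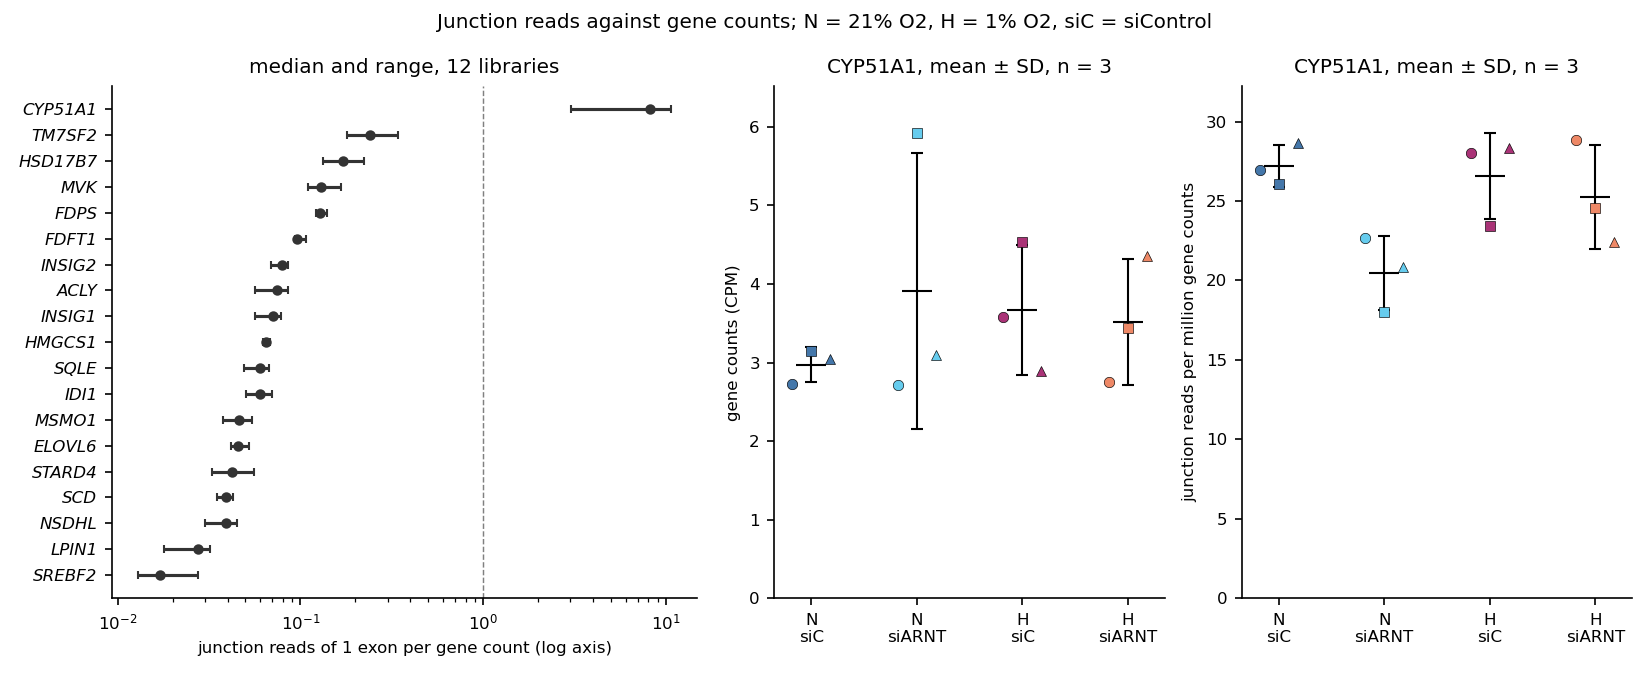
Left, junction reads of the deepest exon skip per gene count (log axis; point, median, bar, range over 12 libraries) for 19 genes; middle and right, CYP51A1 gene counts in CPM and junction reads per 1 M gene counts in each library (circle A, square B, triangle C; bar, mean ± SD, n = 3). CYP51A1 alone lies above 1 read per count, and its 3 normoxia siARNT libraries lie between 18.02 and 22.6 by junction reads, below normoxia siControl, while replicate B is the highest library by gene counts.

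The other 10 sterol enzymes, HMGCS1, MVK, PMVK, MVD, FDPS, LSS, TM7SF2, NSDHL, EBP and DHCR7, passed the test in no comparison as counted. HMGCS1, which makes HMG-CoA, was the most abundant of them (308 ± 18.3 CPM, SD, n = 3, in normoxia siControl). It changed by -0.30 ± 0.1 (SE, edgeR adjusted p = 0.0565) with siARNT in normoxia and -0.03 ± 0.1 (SE, edgeR adjusted p = 0.856) in hypoxia. After GC correction its change in normoxia was -0.15 (edgeR adjusted p = 0.00855). FDPS, which makes farnesyl diphosphate, changed by 0.07 ± 0.089 (SE, edgeR adjusted p = 0.559) and -0.02 ± 0.089 (SE, edgeR adjusted p = 0.887), and after GC correction by -0.18 in normoxia (edgeR adjusted p = 0.0235). MVD, LSS and PMVK, all above 58% GC, were each highest in normoxia siARNT replicate B: PMVK stood there at 27.3 CPM against 17.4 and 17.9 in its fellow replicates.

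Among the regulators, both INSIG genes were lower with siARNT. INSIG1, an anchor of SCAP and itself a target of SREBP, was at 92.0, 84.7 and 80.1 CPM in normoxia siControl, 55.8, 52.7 and 57.1 in normoxia siARNT, 95.2, 98.3 and 85.8 in hypoxia siControl and 60.7, 58.6 and 57.1 in hypoxia siARNT. The 6 siARNT libraries lay between 52.7 and 60.7 CPM, below every siControl library. The log2 change with siARNT was -0.63 ± 0.07 (SE, edgeR adjusted p = 0.000117) in normoxia and -0.66 ± 0.07 (SE, edgeR adjusted p = 3e-05) in hypoxia, and with hypoxia in siControl cells 0.12 ± 0.069 (SE, edgeR adjusted p = 0.235).

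INSIG2, the other anchor, was at 87.5, 79.4 and 80.0 CPM in normoxia siControl, 70.3, 56.0 and 68.4 in normoxia siARNT, 119.9, 116 and 114 in hypoxia siControl and 71.5, 61.9 and 60.3 in hypoxia siARNT. Hypoxia siControl stood above the other 3 groups without overlap. The change with hypoxia was 0.50 ± 0.091 (SE, edgeR adjusted p = 0.00175) in siControl cells and -0.01 ± 0.091 (SE, edgeR adjusted p = 0.974) in siARNT cells. The difference between these, the interaction, was -0.51 ± 0.13 (SE, edgeR adjusted p = 0.0457), and this call was lost in 11 of 21 alternatives: with size factors by relative log expression (edgeR adjusted p = 0.0597) and without any normoxia siControl or hypoxia siControl replicate, normoxia siARNT replicate A or C, or hypoxia siARNT replicate B or C (0.0619 to 0.137). With siARNT it changed by -0.85 ± 0.091 (SE, edgeR adjusted p = 3.38e-05) in hypoxia and -0.34 ± 0.091 (SE, edgeR adjusted p = 0.0229) in normoxia. The normoxic call was lost with the 6 compared libraries alone (0.0552) and without normoxia siControl replicate A or C or normoxia siARNT replicate B (0.0534 to 0.0875). GC correction reduced the normoxic change to -0.22 and kept the call (edgeR adjusted p = 0.00048).

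STARD4 carries sterol between membranes and is a target of SREBP2. It was at 64.7, 55.2 and 53.0 CPM in normoxia siControl, 35.4, 28.9 and 36.6 in normoxia siARNT, 79.4, 81.9 and 75.3 in hypoxia siControl and 42.9, 40.8 and 37.9 in hypoxia siARNT. The 4 groups did not overlap in any of the 4 comparisons, with hypoxia siControl highest and normoxia siARNT lowest. With siARNT it changed by -0.78 ± 0.1 (SE, edgeR adjusted p = 0.000354) in normoxia and -0.96 ± 0.1 (SE, edgeR adjusted p = 2.68e-05) in hypoxia, and rose with hypoxia in siControl cells by 0.45 ± 0.099 (SE, edgeR adjusted p = 0.00548). In siARNT cells the change with hypoxia was 0.27 ± 0.1 (SE, edgeR adjusted p = 0.153), and after GC correction 0.28 (edgeR adjusted p = 0.00132).

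SREBF2, which encodes the sterol SREBP, was at 87.3, 95.2 and 89.1 CPM in normoxia siControl, 77.3, 109 and 78.1 in normoxia siARNT, 119, 144 and 107 in hypoxia siControl and 76.0, 83.2 and 98.1 in hypoxia siARNT. Replicate B was the highest of its group in the 2 normoxic groups and in hypoxia siControl. It rose with hypoxia in siControl cells by 0.45 ± 0.15 (SE, edgeR adjusted p = 0.0451). With siARNT in hypoxia it changed by -0.52 ± 0.15 (SE, edgeR adjusted p = 0.0197), and in normoxia by -0.04 ± 0.15 (SE, edgeR adjusted p = 0.872), where GC correction moved it to -0.36 (edgeR adjusted p = 5.24e-06). The rise was lost in 8 of 22 alternatives: with total count scaling (0.0731), without a count filter (0.0842) and without any normoxia siControl replicate, hypoxia siControl replicate A or B, or hypoxia siARNT replicate B (0.0641 to 0.15). The fall in hypoxia was lost with total count scaling (0.0572) and without hypoxia siControl replicate B or hypoxia siARNT replicate A or B (0.0582 to 0.0666).

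SCAP, the escort of SREBP, was at 10.2, 12.5 and 10.3 CPM in normoxia siControl, 15.9, 24.6 and 15.2 in normoxia siARNT, 11.9, 15.4 and 9.96 in hypoxia siControl and 14.4, 17.5 and 22.1 in hypoxia siARNT. Its rise with siARNT in normoxia was 0.76 ± 0.22 (SE, edgeR adjusted p = 0.0341), with replicate B, the library of steepest GC slope, far above the others. GC correction reduced it to 0.17 (edgeR adjusted p = 0.0536), and the call was also lost without a count filter (0.0844) and without any normoxia siControl replicate, normoxia siARNT replicate B, hypoxia siControl replicate A or hypoxia siARNT replicate B (0.0516 to 0.123). With siARNT in hypoxia SCAP changed by 0.54 ± 0.22 (SE, edgeR adjusted p = 0.093), and there GC correction gave 0.43 (edgeR adjusted p = 4.68e-05) and DESeq2 an adjusted p of 0.0437. SREBF1, which encodes the SREBP of the fatty acid arm, was at 9.94, 13.5 and 10.3 CPM in normoxia siControl and 14.3, 26.5 and 15.2 in normoxia siARNT, and changed by 0.73 ± 0.26 (SE, edgeR adjusted p = 0.0686). After GC correction it was 0.10.

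**Figure D4:**
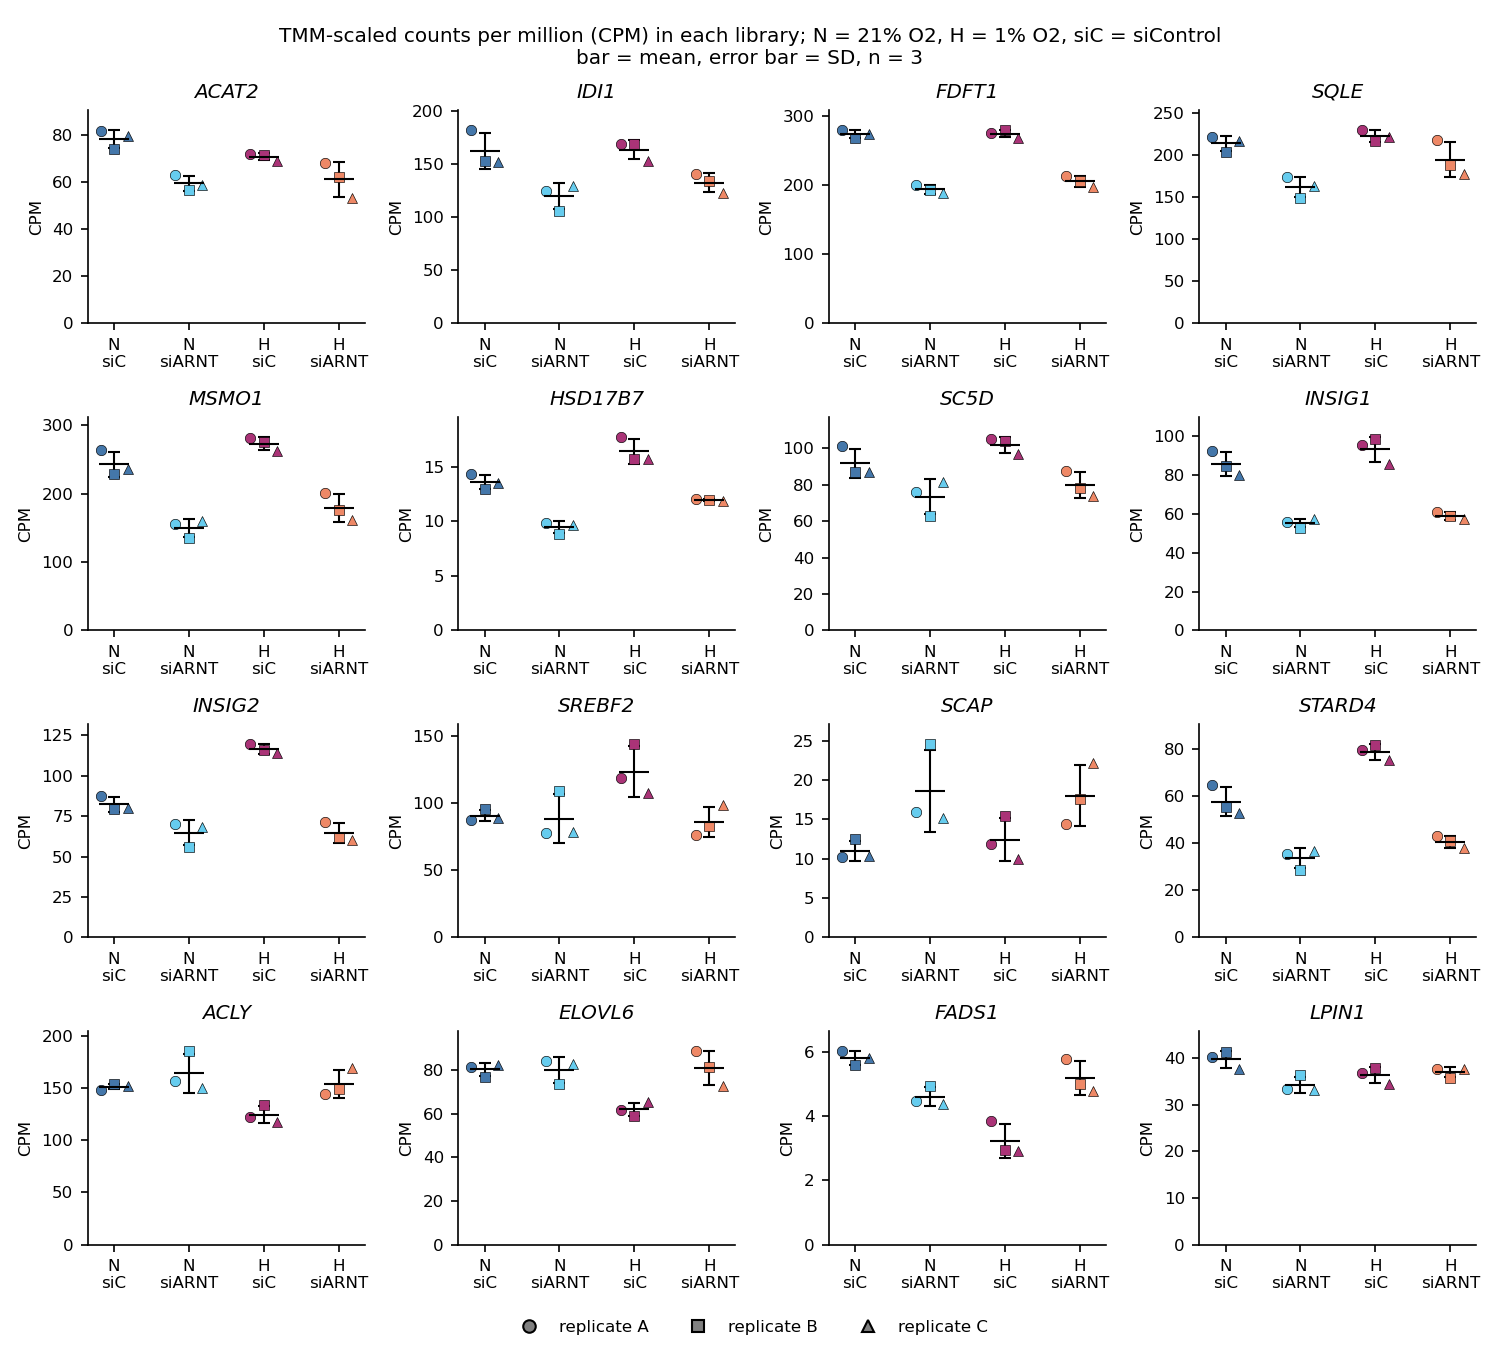
TMM-scaled CPM (vertical axes, from 0) in each of 12 libraries for the 16 genes called in at least 1 comparison, by group (N, 21% O2; H, 1% O2; siC, siControl); points are replicates A, B and C, bars the mean and SD (n = 3). FDFT1, INSIG1 and MSMO1 are lower in both siARNT groups, INSIG2 is highest in hypoxia siControl (114 to 120 CPM), and FADS1 is lowest there (2.92 to 3.85 CPM).

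As counted, low oxygen raised some of the 31 genes and lowered others, in shares near those of all tested genes. In siControl cells, hypoxia raised 4 of the 31 genes (HSD17B7, INSIG2, SREBF2 and STARD4), where 10.4% of all tested genes rose, and lowered 3 (ACLY, ELOVL6 and FADS1), where 14.9% fell. All 3 that fell belong to the fatty acid arm, and 3 of the 4 that rose to the regulators with STARD4. No test was made of this split. The median change was 0.10 log2 in the sterol enzymes and -0.13 in the fatty acid arm, against 0.02 over all tested genes. In siARNT cells hypoxia raised 1 gene, HSD17B7, where 2.21% of all genes rose, and lowered none, where 1.89% fell. The 7 calls in siControl cells became 4 (2 higher, 2 lower) without any normoxia siControl replicate, hypoxia siControl replicate A or hypoxia siARNT replicate B, and the 1 call in siARNT cells became 0 without any of the 12 libraries. After GC correction 13 of the 31 rose and 4 fell in siControl cells, where 3738 of all tested genes rose and 3554 fell, and 9 rose and 1 fell in siARNT cells, where 2017 rose and 1666 fell. The genes newly called in both were MSMO1, SCD and FADS2, which rose, and SREBF1, which fell (-0.35 in siControl and -0.30 in siARNT cells). DESeq2 called 1 of the genes in siARNT cells too, where it called 973 of all genes. An unadjusted edgeR p under 0.05 was reached there by 6 of the 31, and by 3605 of the 16999 tested genes. The 2 hypoxia comparisons differed for 2 genes in the interaction: FADS1 was higher, where 2.49% of all genes were called higher, and INSIG2 lower, where 2.19% were called lower.

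HSD17B7 changed with hypoxia by 0.27 ± 0.083 (SE, edgeR adjusted p = 0.0321) in siControl cells and 0.33 ± 0.084 (SE, edgeR adjusted p = 0.0471) in siARNT cells. The former call was lost without a count filter (edgeR adjusted p = 0.158). With same-lettered libraries of each siRNA paired as a block, a pairing the labels do not state, it was lost too (0.0644). The same held without any normoxia siControl replicate, hypoxia siControl replicate A or C, or hypoxia siARNT replicate B (0.0528 to 0.169). The latter was lost in 16 of 22 alternatives, including the omission of any of the 12 libraries (0.0523 to 0.14). Of the 7 genes whose enzymes use oxygen, 6 were at a higher level in hypoxia siControl than in normoxia siControl. So were 11 of the 14 sterol enzymes that use no oxygen and 8901 of the 16999 tested genes. Among the 7, 1 passed the test, FADS1, which fell. The median change of the 7 with hypoxia was 0.16 log2 in siControl cells and 0.18 in siARNT cells. In siARNT cells 0 of the 7 passed as counted. An unadjusted edgeR p under 0.05 was reached there by 3 of the 7, and by 3605 of the 16999 tested genes. SQLE passed there with total count scaling (edgeR adjusted p = 0.0323) and with the GC correction (0.00285). The 14 sterol enzymes that use no oxygen had medians of 0.05 and -0.08, and no test was made of the difference. CYP51A1 enters these values by its gene counts, 0.30 in siControl and -0.15 in siARNT cells, and its junction reads gave the opposite signs, -0.04 and 0.30 (exact two-sided permutation p = 0.80 and 0.20). With the junction reads in their place, 5 of the 7 were higher in siControl cells and 7 in siARNT cells, with medians of 0.15 and 0.18. In siARNT cells 5 of the 14 sterol enzymes that use no oxygen and 7393 of the 16999 tested genes were higher with hypoxia. After GC correction, 4 of the 7 rose with hypoxia in siControl cells: MSMO1 by 0.25 (edgeR adjusted p = 0.000237), SC5D by 0.24 (0.00223), SCD by 0.24 (0.00117) and FADS2 by 0.20 (0.0191), and FADS1 fell. In siARNT cells 4 rose too: SQLE by 0.26, MSMO1 by 0.24, SCD by 0.19 and FADS2 by 0.23.

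FADS1, the delta-5 desaturase of polyunsaturated fatty acids, had the largest change with hypoxia among the genes called. It was at 6.04, 5.60 and 5.83 CPM in normoxia siControl, 4.49, 4.94 and 4.40 in normoxia siARNT, 3.85, 2.94 and 2.92 in hypoxia siControl and 5.80, 5.01 and 4.80 in hypoxia siARNT. Hypoxia siControl lay below the other 3 groups without overlap. The change with hypoxia was -0.84 ± 0.13 (SE, edgeR adjusted p = 0.000588) in siControl cells and 0.18 ± 0.13 (SE, edgeR adjusted p = 0.458) in siARNT cells, and the interaction was 1.02 ± 0.18 (SE, edgeR adjusted p = 0.00963). With siARNT in hypoxia it rose by 0.68 ± 0.13 (SE, edgeR adjusted p = 0.00199), and in normoxia it changed by -0.34 ± 0.13 (SE, edgeR adjusted p = 0.0739). After GC correction its change in normoxia was -0.35 (edgeR adjusted p = 0.0196). Its neighbour FADS2, the delta-6 desaturase, was at 21.3, 26.3 and 22.1 CPM in normoxia siControl and 27.3, 36.7 and 23.8 in hypoxia siControl and changed by 0.33 ± 0.22 (SE, edgeR adjusted p = 0.3). The 2 genes lie on opposite strands of chromosome 11, and 4.79% of FADS1's exon bases are also FADS2 exon.

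ELOVL6 lengthens saturated and monounsaturated fatty acids. It was at 81.6, 77.0 and 82.4 CPM in normoxia siControl, 84.1, 73.4 and 82.5 in normoxia siARNT, 61.9, 59.1 and 65.2 in hypoxia siControl and 88.7, 81.2 and 72.8 in hypoxia siARNT. Hypoxia siControl was again the low group, without overlap. The change with hypoxia in siControl cells was -0.37 ± 0.08 (SE, edgeR adjusted p = 0.00485), with siARNT in hypoxia 0.38 ± 0.08 (SE, edgeR adjusted p = 0.00356), and the interaction 0.39 ± 0.11 (SE, edgeR adjusted p = 0.0749). The interaction passed with total count scaling (edgeR adjusted p = 0.0175), without hypoxia siARNT replicate C (0.0264) and after GC correction, which reduced it to 0.27 (0.00113).

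ACLY makes cytosolic acetyl-CoA from citrate, the substrate of both arms. It was at 149, 154 and 152 CPM in normoxia siControl, 157, 186 and 149.9 in normoxia siARNT, 122, 134 and 118 in hypoxia siControl and 144, 149.6 and 169 in hypoxia siARNT. Hypoxia siControl was the low group here too, without overlap. The change with hypoxia in siControl cells was -0.28 ± 0.088 (SE, edgeR adjusted p = 0.0355), and with siARNT in hypoxia 0.31 ± 0.088 (SE, edgeR adjusted p = 0.0208). The former was lost with same-lettered libraries of each siRNA paired as a block (edgeR adjusted p = 0.0549). It was also lost without any normoxia siControl replicate, hypoxia siControl replicate A or C, or hypoxia siARNT replicate B (0.0508 to 0.115). The latter was lost without hypoxia siControl replicate A or C or hypoxia siARNT replicate C (0.069 to 0.0777).

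LPIN1, a phosphatidate phosphatase, was at 40.2, 41.3 and 37.7 CPM in normoxia siControl, 33.4, 36.3 and 33.2 in normoxia siARNT, 36.8, 37.8 and 34.4 in hypoxia siControl and 37.7, 35.7 and 37.6 in hypoxia siARNT. Its mean was lowest in normoxia siARNT, where every library lay below those of normoxia siControl, with a change of -0.21 ± 0.064 (SE, edgeR adjusted p = 0.0377). The call was lost in 8 of 21 alternatives: with total count scaling (edgeR adjusted p = 0.0698), without a count filter (0.241), with the 6 compared libraries alone (0.0654), and without normoxia siControl replicate A or B, normoxia siARNT replicate A or C, or hypoxia siARNT replicate B (0.0564 to 0.111). SCD, the stearoyl-CoA desaturase and the most abundant gene of this arm per kilobase, was at 332, 324 and 335 CPM in normoxia siControl and 386, 382 and 342 in hypoxia siControl, and changed by 0.16 ± 0.064 (SE, edgeR adjusted p = 0.0823). FASN, the fatty acid synthase, was at 7.95, 11.2 and 7.85 CPM in normoxia siControl and 12.9, 36.7 and 13.1 in normoxia siARNT. Replicate B again stood apart, the change was 1.21 ± 0.47 (SE, edgeR adjusted p = 0.0819), and GC correction reduced it to 0.36.

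Per kilobase of exon, the genes spanned a wide range in normoxia siControl cells. MSMO1 was highest, at 83.9 ± 6.40 CPM per kb (SD, n = 3), followed by HMGCS1 at 65.6 ± 3.89, SCD at 61.6 ± 1.08, FDFT1 at 52.6 ± 1.15 and SQLE at 49.6 ± 2.13. FASN (0.963 ± 0.206 CPM per kb), MVD (0.716 ± 0.101) and FADS1 (0.569 ± 0.0217) were near the lower end. Of the 18 sterol enzymes, 12 had their highest group mean in hypoxia siControl and none in hypoxia siARNT, and of the 6 regulators with STARD4, 4 had theirs in hypoxia siControl. The share of all tested genes highest in each group was not counted, and CYP51A1 enters by its gene counts. Margins could be small: the FDFT1 mean was 274.5 CPM in hypoxia siControl and 273.7 in normoxia siControl.

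Splicing of the same genes was read from the deposited exon-skip table. Of 55 exon skips in the listed genes, 43 in 19 genes had at least 20 junction reads in every library, and 28 of these had a mean inclusion of at least 90%. With limma on the log2 odds of inclusion, 0 of the 43 passed an adjusted p under 0.05 in any comparison. Over all 18967 exon skips tested, 0.0369% passed with hypoxia in siControl, 0.0475% with hypoxia in siARNT, 0.0211% with siARNT in normoxia, 0.0316% with siARNT in hypoxia and 0.0422% in the interaction. At an unadjusted limma p under 0.05 there were 1, 3, 5, 5 and 1 of the 43 in these comparisons. The share of all tested exon skips at that unadjusted threshold was not counted, so these numbers have no background to be read against. The median standard error of a log2 odds change was 0.50, or 0.71 in the interaction. Shifts of this size, and some well above it, could not be told from the spread between libraries. Without hypoxia siARNT replicate C, 4 passed: an ACLY exon with siARNT at both oxygen levels and an ELOVL6 exon in both comparisons of hypoxia siARNT.

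The ACLY exon, 114 bases long, and the LPIN1 exon below were picked out after their values were seen. Reads that skip the ACLY exon numbered 8, 4 and 4 in normoxia siARNT and 4, 6 and 0 in hypoxia siARNT, of 380 to 793 junction reads, and 0 in all 6 siControl libraries, which allows a share of up to 0.47% to 0.96% there by counting error alone. The skipped share was 0.78% to 1.01% in normoxia siARNT and 0% to 1.58% in hypoxia siARNT. The limma adjusted p for siARNT was 0.339 in normoxia and 0.455 in hypoxia. An LPIN1 exon of 108 bases was included at 53.3%, 67.7% and 54.8% in normoxia siControl and at 76.9%, 76.9% and 81.8% in normoxia siARNT. In hypoxia it was included at 73.7%, 64.9% and 53.8% with siControl and at 88.9%, 71.4% and 87.5% with siARNT, on 33 to 83.5 junction reads a library. The log2 odds changed by 1.33 ± 0.48 in normoxia and 1.44 ± 0.48 in hypoxia (SE), with a limma adjusted p of 0.561 and 0.440.

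Genes around the pathway were read from a further list of 36, of which 35 were tested: SREBP processing and INSIG turnover, sterol transport and sensing, isoprenoid branches, and fatty acid supply and activation. With hypoxia in siControl cells 7 rose and 13 fell (10.4% and 14.9% of all tested genes), and with hypoxia in siARNT cells 1 rose and 1 fell (2.21% and 1.89%). With siARNT, 5 rose and 1 fell in normoxia (9.42% and 10.8%), and 14 rose and 3 fell in hypoxia (14.4% and 14.7%). Of the 7 genes of SREBP processing and INSIG turnover, 5 rose and 1 fell with siARNT in hypoxia, where 0 sterol enzymes rose and 5 fell. The one that fell was RNF145, a ubiquitin ligase, with a change of -0.32 ± 0.087 (SE, edgeR adjusted p = 0.0166), and MBTPS1, the Golgi protease that cuts SREBP, rose with siARNT in normoxia by 0.38 ± 0.056 (SE, edgeR adjusted p = 0.000839).

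The further genes below are named by rank among the called genes of this list in each comparison. ABCG1, a sterol exporter, rose with hypoxia in siControl cells by 0.62 ± 0.16 (SE, edgeR adjusted p = 0.0158), changed with siARNT in hypoxia by -0.64 ± 0.16 (SE, edgeR adjusted p = 0.0123) and had an interaction of -1.07 ± 0.23 (SE, edgeR adjusted p = 0.0264). PDSS1, of the coenzyme Q side chain, moved the other way, by -0.81 ± 0.079 (SE, edgeR adjusted p = 2.79e-05), 0.62 ± 0.079 (SE, edgeR adjusted p = 0.000122) and 0.53 ± 0.11 (SE, edgeR adjusted p = 0.0215) in the same 3. With hypoxia in siControl cells ACACB, the mitochondrial acetyl-CoA carboxylase, rose by 0.53 and PAQR3, which tethers SCAP in the Golgi, changed by -0.71. With hypoxia in siARNT cells SOAT1, which esterifies sterol, rose by 0.61 ± 0.092 (SE, edgeR adjusted p = 0.00598) and MYLIP, a ubiquitin ligase induced by sterol sensing, changed by -0.31 ± 0.077 (SE, edgeR adjusted p = 0.0441). ABCA1, another sterol exporter, rose with siARNT in normoxia by 1.45 ± 0.3 (SE, edgeR adjusted p = 0.00723), from 0.193 ± 0.0242 to 0.541 ± 0.126 CPM (SD, n = 3), and ACSL1 changed by -0.37. ACSL4, which activates polyunsaturated fatty acids, rose with siARNT in hypoxia by 0.50, and GPAM, which starts glycerolipid synthesis, had an interaction of 0.48. These values are without GC correction.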

How the data were processed

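RNA-seq counts from 12 libraries of AsPC-1 cells were analysed. The authors deposited unnormalised read counts per Ensembl gene ID, 1 table per library, and a table of exon skips with junction reads and the inclusion fraction of each event. The submitters' processing notes name Trimmomatic, STAR 2.4.2a and GRCh38.p10, and the counter's settings and the annotation are not given in the sources used here. Of all reads, 22.7% to 25.2% named no gene and were left out, which left 38.5 M to 84.3 M counts per library. Intervals and floors cover counting error only.

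Gene IDs were paired with symbols for 51996 of 57820 IDs (99.3% of counts). Genes were filtered with filterByExpr, scaled by TMM and tested in edgeR 4.0.16 (R 4.3.3) with robust quasi-likelihood fits of 4 group means over all 12 libraries, for 5 contrasts including the interaction (how far the hypoxia response in siARNT cells exceeds that of siControl cells). Exon skips with at least 20 junction reads in every library were tested with limma 3.58.1 on log2 odds with a pseudocount of 0.5, and the deposited fraction was recomputed from the junction reads within 0.006 for every event. The GC correction fitted a spline of 5 degrees of freedom to each library, with GC content, exon length and overlaps from GENCODE 29 (GRCh38). DESeq2 1.42.0 was an alternative. The scripts were tested on simulated data. Figures used matplotlib 3.10.9.

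Values in every library are given for the genes called in at least 1 comparison, and for the wider list the 2 largest called rises and falls per comparison. The genes and lists were chosen with earlier results of these data known. An alternative fit took the replicate letter as a block over all 4 groups, whether or not same-lettered libraries deviated together. Deviations from the group means correlated at 0.54, 0.75 and 0.53 (A, B, C) between normoxia siControl and hypoxia siControl. Between normoxia siControl and normoxia siARNT they correlated at 0.71, 0.89 and 0.39. Different letters could correlate as strongly (normoxia siControl A with normoxia siARNT C, 0.78), and the main fit has no pairing. Same letters did not deviate together between the siARNT groups (0.91, -0.12 and -0.86) or the hypoxia groups (0.70, -0.07 and -0.73).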

Additional observations from a re-analysis of the deposited data

Results flagged for a closer look

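For 2 of the genes the effect of hypoxia differed between siControl and siARNT cells by the interaction term itself. FADS1 had an interaction of 1.02 log2 (edgeR adjusted p = 0.00963), with all 3 hypoxia siControl libraries below all 9 others, and the call held in all 21 alternatives. INSIG2 had an interaction of -0.51 log2 (edgeR adjusted p = 0.0457), with all 3 hypoxia siControl libraries above all 9 others, and its call was lost in 11 of 21 alternatives.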

How the results depend on the processing

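GC correction raised the number of listed genes called, and that of all genes, from 7 to 17 (all 4299 to 7292) with hypoxia in siControl (18 with the letter as a replicate block as well), from 1 to 10 (696 to 3683) with hypoxia in siARNT (10), from 12 to 19 (3431 to 5552) with siARNT in normoxia (20), from 12 to 21 (4948 to 7834) with siARNT in hypoxia (22) and from 2 to 7 (797 to 3141) in the interaction (8). It turned the sign of 31 of 155 values, 0 of them called as counted and 6 after it. Among these were SREBF2 (0.13, and 0.13 with the block; -0.04 as counted), SCAP (0.22 and 0.22; -0.04) with hypoxia in siARNT, ELOVL6 (0.14 and 0.14; -0.01), FDPS (-0.18; 0.07), DHCR7 (-0.34; 0.06) and TM7SF2 (-0.67; 0.04) with siARNT in normoxia, and SCAP in the interaction (0.26, and 0.27 with the block; -0.22). The cause was not tested. Leaving out 1 library gave 4 to 8 genes with hypoxia in siControl, 0 to 0 with hypoxia in siARNT, 8 to 13 and 9 to 15 with siARNT in normoxia and hypoxia, 1 to 2 in the interaction, and 0 to 4 exon skips. With hypoxia in siARNT, total count scaling gave 3 genes and the letter as a replicate block 2. RLE size factors, no count filter, the letter within each siRNA as a block and the 6 compared libraries alone gave 0. RLE size factors gave 1 gene in the interaction. The letter block added SQLE with hypoxia in siARNT (edgeR adjusted p = 0.0387), and ACAT2 (0.0422), SQLE (0.0289) and SCAP (0.0359) with siARNT in hypoxia, where it gave 16 genes, and 14 in normoxia, and it ended no call.

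Over all tested genes, total count scaling changed the split of rises and falls from 375 and 321 to 634 and 330 with hypoxia in siARNT, from 2452 and 2496 to 3473 and 1973 with siARNT in hypoxia, and from 424 and 373 to 1125 and 370 in the interaction. GC correction changed it from 1772 and 2527 to 3738 and 3554 with hypoxia in siControl. The error of an exon skip could be large at high depth: the LPIN1 exon, on 33 to 83.5 junction reads, had an SE of 0.48 log2 odds, and 1 exon of SQLE, on 356 to 1095.5, an SE of 2.91.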
